A study of Mus musculus with 4 samples.

Results

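Serpins are a superfamily of proteins most of which inactivate a serine protease by trapping it irreversibly. The plasminogen activators Plau (urokinase) and Plat (tissue plasminogen activator) are the proteases that turn plasminogen into plasmin at the cell surface and in fibrin, and Plaur is the receptor that holds urokinase on the cell. The RNA of these genes was compared between mouse fibroblast cultures exposed to 3MC and TPA and cultures that were not. Members were all probes of the array whose gene name, in the files, begins with Serpin and a clade letter, or is Plau, Plaur or Plat. The members reported were 78 probes for 57 genes, 54 of them serpins, of 61307 probes for 50090 gene names on the array.

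The cells were C3H/10T1/2, a mouse embryo fibroblast line that is used to score transformation by carcinogens. In the 3MC+TPA group (2 arrays), flasks received the carcinogen 3MC at 2.5 µg/ml for 2 days, had 4 days in plain medium, were given the tumour promoter TPA at 100 ng/ml 2 times per week for 2 weeks, and then grew for 4 weeks without either agent. The control group (2 arrays) was the same line grown for 6 weeks with neither agent named in its labels. The labels give 6 weeks of culture for the 3MC+TPA group as well, while its listed steps together run longer than that. RNA of whole flasks was read, so transformed foci and the cells around them were not separated, and fewer cells of a kind cannot be told apart from less RNA per cell. Labelled RNA was hybridised in duplicate, and the labels do not name separate cultures for replicate arrays. Every p-value below therefore covers the spread among arrays alone, and that spread may be technical.

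Values are log2 of an array's processed signal minus the 75th percentile of that array, so 0 is the level of a probe brighter than most. The arrays held 32222 and 32512 spots well above background in the 3MC+TPA group and 32125 and 32415 in the control group, and replicate arrays correlated at 0.988 and 0.991 over features. All 8 fibroblast markers checked (among them Col1a1 and Vim) were well above background on all 4 arrays, with summed levels of 1515 and 1575 times the percentile in 3MC+TPA cells and 1867 and 1699 in control cells. Of these 8, Thy1 was called higher in 3MC+TPA cells (7.88-fold, limma adjusted p = 0.0467), and Pdgfra (2.78-fold, 0.0206) and Pdgfrb (2.03-fold, 0.0217) lower. Of 7 leukocyte markers 4 were tested and 0 were called, their sums were 3.93 and 4.77 in 3MC+TPA cells and 3.56 and 4.78 in control cells, and Ptprc, Itgam and Laptm5 were not above background on any array. Of the 3 hepatocyte and 3 mast cell markers, 0 met the signal needed for a test. Of 4 endothelial markers 1 (Tek) was tested and was called higher, and of 6 epithelial markers 3 were tested and 0 were called. Tek was not well above background on either control array, so its call sets a signal against background readings. The part of other cell types in the results below was not tested.

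A gene was tested where its brightest probe was well above background on both arrays of at least 1 group, and was called at an adjusted p under 0.05 in limma, adjusted over all 24977 genes tested. Of the 57 members 27 were tested, 24 were well above background on all 4 arrays and 22 on none. Of the 27 tested, 3 were called higher in 3MC+TPA cells (11.1%, against 7.37% of all genes tested) and 11 lower (40.7%, against 8.38%). The median log2 change of the 27 was -1.23, against -0.01 over all genes tested. The groups did not overlap for 5 members that were higher and 15 that were lower in 3MC+TPA cells, where 31.8% of all genes lay apart upwards and 32.1% downwards. Without any scaling between arrays the median gene shifted by 0.34 and 79.1% of all calls were upward, against 46.8% as reported. Of all 24977 genes tested 5321 were then called higher and 1404 lower, and of the 27 members 5 higher and 9 lower. Calls also fell in number, for members as for all genes, where either 3MC+TPA array was left out, which leaves 1 array in that group. Over all genes they fell where either control array was left out too, while members gained more calls than they lost without control array 1. The 5 members called in all 4 fits that each leave out 1 array were Serpina3f, Serpina3g, Serpinb7, Serpine2 and Serping1. Serpinb7 and Serpini1 passed the filter only through the group where they are bright, so their calls, 1 lower and 1 higher, set a signal against background readings. Serpina9, which was not called, passed the filter only through the 3MC+TPA group as well, with 1 control array well above background. With the test limited to genes well above background on all 4 arrays, 24 members were tested. Of these 2 were called higher and 11 lower, Serpinb8 among the lower. Of all 22647 genes tested in that fit, 1852 were called higher and 1977 lower.

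**Figure D1:**
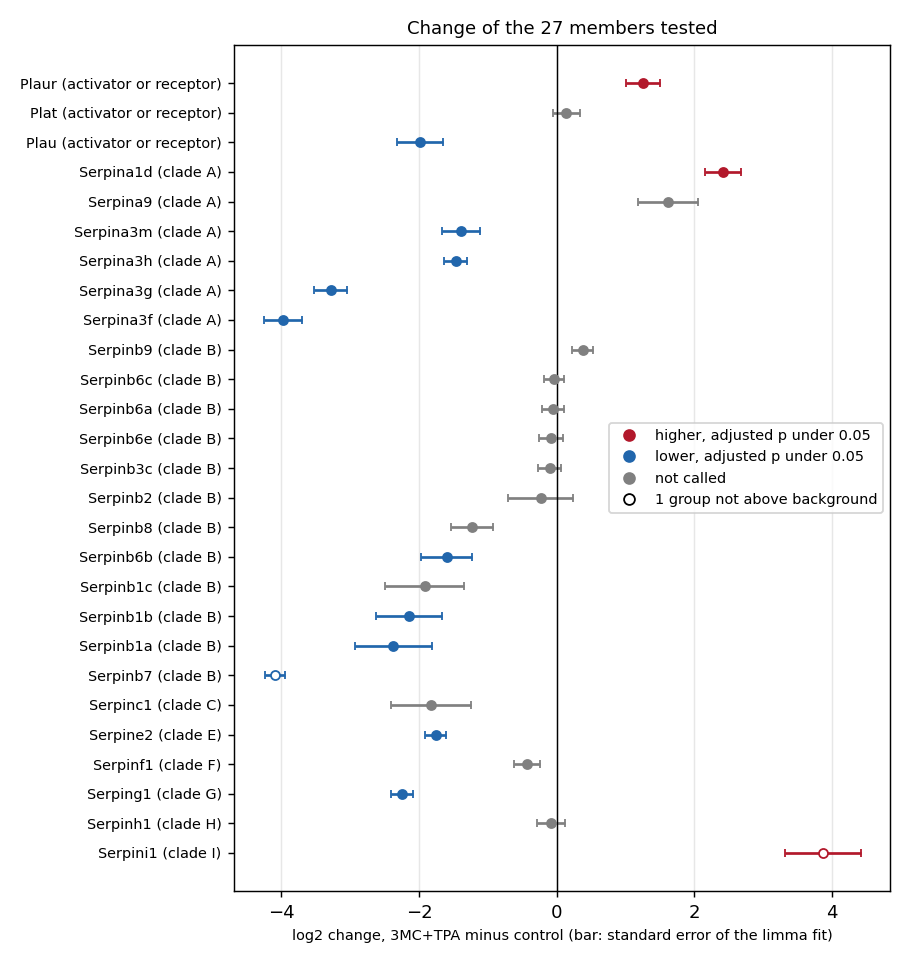
Log2 change (x axis, 3MC+TPA minus control, with the standard error of the limma fit) of the 27 members tested, ordered by family. Red points were called higher, blue points lower and grey points were not called, and open points mark genes not above background in 1 group; the Serpina3 genes lie left of 0, and Plaur and Plau on opposite sides.

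The promoters of 4 called members are shown to set the letters before neighbouring and opposed genes side by side. Each run gives the 250 bases before the gene start in RefSeq (GRCm38.p6, plus strand), 5′ to 3′. Capitals mark TTCNNNGAA, the core of the element that STAT factors bind, in Serpina3f (chr12:104214294-104214543) and Serpina3g (chr12:104235897-104236146), the 2 genes of the Serpina3 cluster with the lowest log2 changes. In Plaur (chr7:24462233-24462482), called higher, and Serpinb7 (chr1:107422439-107422688), called lower, capitals mark TGANTCA, the core of the element that AP-1 factors bind.
Serpina3f: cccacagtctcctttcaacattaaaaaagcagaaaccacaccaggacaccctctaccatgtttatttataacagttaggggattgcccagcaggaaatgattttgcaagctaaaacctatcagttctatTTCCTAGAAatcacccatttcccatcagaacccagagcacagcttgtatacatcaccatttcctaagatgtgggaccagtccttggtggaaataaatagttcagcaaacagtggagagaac
Serpina3g: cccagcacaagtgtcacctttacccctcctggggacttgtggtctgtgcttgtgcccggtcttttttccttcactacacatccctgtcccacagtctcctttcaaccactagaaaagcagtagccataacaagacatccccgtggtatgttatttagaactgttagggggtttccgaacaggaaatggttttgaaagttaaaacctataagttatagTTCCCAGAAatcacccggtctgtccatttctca
Plaur: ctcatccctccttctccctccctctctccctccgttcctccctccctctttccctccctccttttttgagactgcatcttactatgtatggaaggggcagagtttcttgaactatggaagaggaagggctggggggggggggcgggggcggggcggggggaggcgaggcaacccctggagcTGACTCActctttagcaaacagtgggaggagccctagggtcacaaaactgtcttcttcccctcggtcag
Serpinb7: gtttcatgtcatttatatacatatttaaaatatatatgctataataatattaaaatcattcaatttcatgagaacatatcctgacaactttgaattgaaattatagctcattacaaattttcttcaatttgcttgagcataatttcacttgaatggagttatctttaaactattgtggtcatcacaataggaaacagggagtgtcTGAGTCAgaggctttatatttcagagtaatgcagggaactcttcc

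The table held a promoter for 46 of the 57 members, 20 of them tested, and none for the 11 others, among them Plau, Plat and Serping1. Over windows of 250 bases before to 50 after the start, read on both strands, TGANTCA lay in 9 of the 46, and of the tested members in Plaur, Serpina1d, Serpinb2, Serpinb7 and Serpinb8. It lay in 7.81% of all 32851 windows of that length. Members are counted here as genes with a motif in any of their windows, while the shares over all are of windows. Some members have several windows, so these counts and shares are not in the same unit. TTCNNNGAA lay in 7 of the 46, and of the tested members in Serpina3f, Serpina3g, Serpinb2 and Serpinb6a, against 8.3% of all windows. These were 2 of 10 motifs searched, all chosen after the values of the genes were known. The others were TGACTCA, which lies within TGANTCA (4 of the 46, 5.2% of all windows), the ISRE core (3, 3.44%) and GAAANNGAA, which it contains (8, 8.56%), CAGAC (24, 49.6%), CCGGAAG (3, 8.86%), the NF-kB site (0, 0.155%), GCGTGGGCG (0, 0.612%) and TATAAA (15, 13.6%). The members that hold TGANTCA include genes called higher, called lower and not called. Ungapped alignments of the Serpina3f and Serpina3g windows were searched over a limited range of shifts. The one with most identical bases had 119 of 212 (56.1%) from the Serpina3f start shown, and 93 of 286 (32.5%) from a second Serpina3f start. TTCNNNGAA lies 210 bases before that second start and 33 before the Serpina3g start. The shift that sets these side by side was outside the range, so 32.5% is the best of the shifts searched only.

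The activators and their receptor did not move together. Plau was lower in 3MC+TPA cells, at -4.49 and -3.82, against -2.52 and -1.82 in control cells, and the groups did not overlap. The log2 change was -1.99 ± 0.34 (SE), 3.96-fold lower (limma adjusted p = 0.0214), and it was -1.09 with normexp background correction and -1.06 as the mean over both probes. A second Plau probe was not above background on any array, so the call rests on 1 probe, read as gtgtatttctgtatctaactgcaagtctag over its first 30 bases. Without 3MC+TPA array 1, 3MC+TPA array 2 or control array 2 the limma adjusted p for Plau was 0.0899, 0.0553 or 0.0512.

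Plat did not pass the test. It stood at 3.32 and 3.00 in 3MC+TPA cells, against 3.17 and 2.88 in control cells, with groups that overlapped. The log2 change was 0.14 ± 0.20 (SE, limma adjusted p = 0.672), and a second probe gave 0.15.

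Plaur was higher in 3MC+TPA cells, at 3.47 and 3.76, against 2.08 and 2.64 in control cells. Both exposed arrays lay above both control arrays, and the log2 change was 1.25 ± 0.25 (SE), 2.38-fold (limma adjusted p = 0.0311). A second Plaur probe gave a log2 change of 1.09, with an adjusted p of 0.0665 in the limma fit of every probe. The call was lost without control array 1 (limma adjusted p = 0.0637), 3MC+TPA array 1 (0.0918) or 3MC+TPA array 2 (0.141).

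Serpine2 (protease nexin 1), which inhibits thrombin and urokinase, was at 2.10 and 2.23 in 3MC+TPA cells, against 3.99 and 3.86 in control cells. Arrays of 1 group differed by at most 0.13, and the log2 change was -1.76 ± 0.16 (SE), 3.39-fold lower (limma adjusted p = 0.00379). Serpine3 was not above background on any array.

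Serpinb2 (PAI-2), a further inhibitor of urokinase, did not pass the test. It stood at -2.72 and -3.18 in 3MC+TPA cells, against -3.39 and -2.04 in control cells, so the control arrays lay on either side of the exposed ones. The log2 change was -0.24 ± 0.47 (SE, limma adjusted p = 0.764). The probe was printed in 8 spots, whose SD within an array was 0.08 to 0.16, while the control arrays differed by 1.34. A second Serpinb2 probe, which shares 20 bases with the first, gave a log2 change of -0.03.

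Serping1, Serpinf1 and Serpinh1 are single members of their clades in the tested set. Serping1, the C1 inhibitor that acts on the first complement proteases and on plasma kallikrein, was at 0.97 and 1.10 in 3MC+TPA cells, against 3.34 and 3.24 in control cells. The groups lay apart by many times their spread, with a log2 change of -2.25 ± 0.15 (SE), 4.75-fold lower (limma adjusted p = 0.0018). Serpinf1 (PEDF), a serpin that does not inhibit proteases, was at 6.60 and 6.75 in 3MC+TPA cells, against 7.27 and 6.94 in control cells. Its groups did not overlap, but the log2 change of -0.43 ± 0.19 did not pass the test (SE, limma adjusted p = 0.178), and a second probe gave -0.50.

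Serpinh1 (HSP47), the collagen chaperone of the endoplasmic reticulum, stood at 6.75 and 6.34 in 3MC+TPA cells, against 6.74 and 6.51 in control cells. The groups overlapped, and the log2 change was -0.08 ± 0.21 (SE, limma adjusted p = 0.823). Its 2 other probes, identical over all 60 bases, gave 0.09 and 0.03, and the sign of the brightest probe turned without scaling between arrays (0.27) and with quantile normalization (0.01). Serpinf2 (alpha-2-antiplasmin), the plasmin inhibitor, was above background on 1 array and was not tested.

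**Figure D2:**
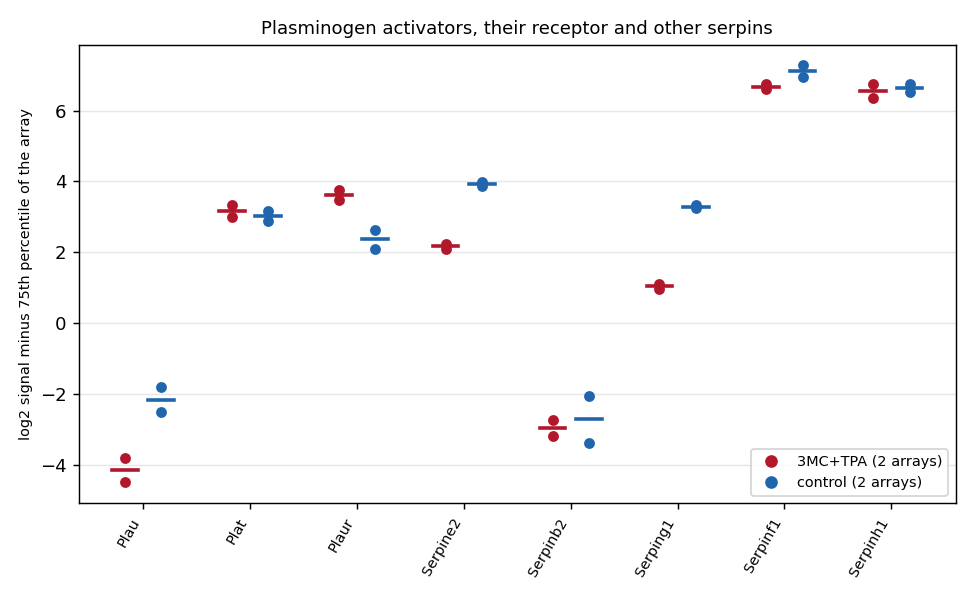
Log2 signal minus the array's 75th percentile (y axis) for the activators, Plaur, Serpine2, Serpinb2, Serping1, Serpinf1 and Serpinh1; points are arrays and bars the means of 2, with 3MC+TPA left of control. Plaur was higher in 3MC+TPA cells, Plau, Serpine2 and Serping1 lower, and levels of different genes are not comparable.

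Clade A holds the secreted serpins related to alpha-1-antitrypsin and alpha-1-antichymotrypsin. Of its 19 genes 6 were tested: 4 were lower (66.7%, against 8.38% of all genes tested), 1 was higher (16.7%, against 7.37%) and 1 was not called. The 4 lower genes were all 4 tested members of the Serpina3 subfamily, a set of 9 gene copies on chromosome 12 that expanded in the mouse. Their median log2 change was -2.38. The other 5 were not tested, so the count covers only the copies seen on these arrays.

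Serpina3g, an intracellular inhibitor of cathepsins in the mouse, was at 1.98 and 2.21 in 3MC+TPA cells, against 5.09 and 5.67 in control cells. The groups lay far apart, with a log2 change of -3.29 ± 0.24 (SE), 9.75-fold lower (limma adjusted p = 0.00223). A second probe also gave -3.29, but 56 of 58 overlapping bases were the same, so it is hardly a separate reading.

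Serpina3f was at -3.28 and -3.06 in 3MC+TPA cells, against 0.45 and 1.17 in control cells. Its log2 change of -3.98 ± 0.28 (SE), 15.7-fold lower, had a limma adjusted p of 0.00185, and was -3.10 with normexp. A second probe, without a match of that kind to the first, gave -4.70. The first 30 bases of the probes for these genes were the following.
Serpina3f probe: cacaaacactcatattgccctctttatggc
Serpina3g probe: tctcttgttgaccaactacgtaggactggt

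Serpina3h, listed in RefSeq as a transcribed pseudogene, was at -0.53 and -0.41 in 3MC+TPA cells, against 0.88 and 1.11 in control cells. Its log2 change was -1.47 ± 0.17 (SE, limma adjusted p = 0.00751), which was 0.0509 without 3MC+TPA array 1. Its probe matched the Serpina3g probes over 30 to 32 bases (24 and 25 identical), so reading of Serpina3g RNA by the Serpina3h probe was not tested and the value is uncertain.

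Serpina3m was at -4.16 and -4.15 in 3MC+TPA cells, against -3.14 and -2.39 in control cells. Its log2 change of -1.39 ± 0.28 (SE) had a limma adjusted p of 0.0324, and 0.127 or 0.135 without 3MC+TPA array 1 or 2. With normexp the Serpina3m change was -0.82. Serpina3n was above background on 1 control array and was not tested.

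Serpina1d, one of the mouse copies of alpha-1-antitrypsin, went the other way. It was at -1.15 and -0.97 in 3MC+TPA cells, against -3.14 and -3.81 in control cells, and the groups did not overlap. The log2 change was 2.42 ± 0.26 (SE), 5.34-fold higher (limma adjusted p = 0.00654, and 0.0521 without 3MC+TPA array 2). With normexp the change was 1.48. Serpina1e and Serpina1f were not above background on any array, and reading of other Serpina1 copies by this probe was not tested, so the value is uncertain for this copy. Serpina9, at -2.77 and -2.67 in 3MC+TPA cells, against -3.68 and -4.99 in control cells, had a log2 change of 1.62 ± 0.44 and was not called (SE, limma adjusted p = 0.0685). Serpina9 was well above background on only 1 control array, so its change rests in part on a background reading. With normexp the Serpina9 change was 0.60.

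**Figure D3:**
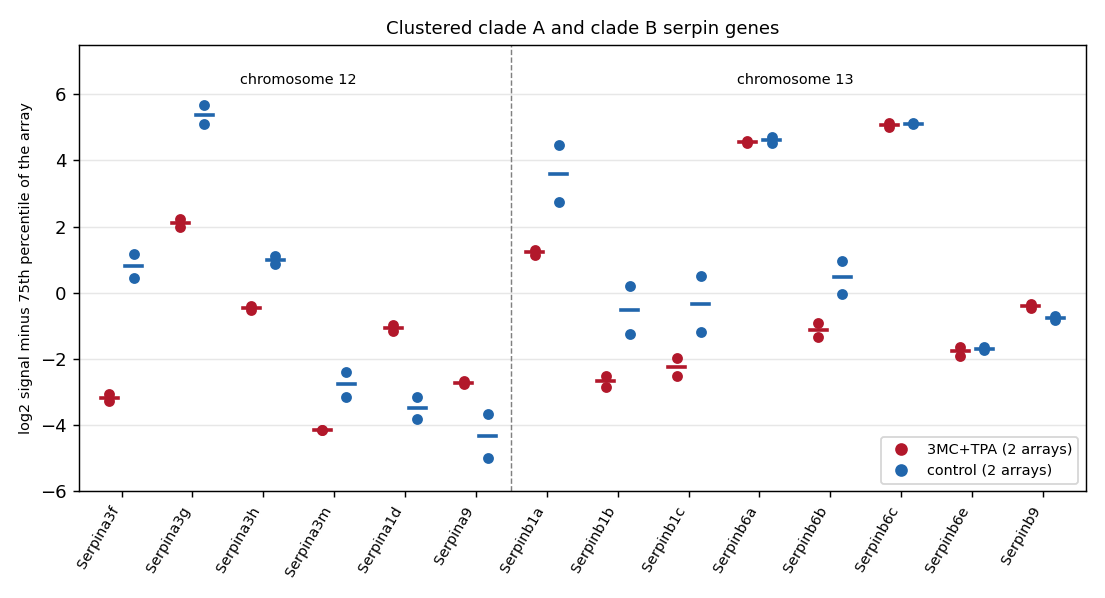
Log2 signal minus the array's 75th percentile (y axis) for the tested clade A genes on chromosome 12 and the tested Serpinb genes on chromosome 13; points are arrays, bars are means of 2, and 3MC+TPA stands left of control. All 4 Serpina3 genes and Serpinb1a, Serpinb1b and Serpinb6b were lower in 3MC+TPA cells, and the control arrays of the Serpinb1 genes lie far apart.

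Clade B holds the intracellular serpins, which in the mouse lie in a group on chromosome 13 (Serpinb1, Serpinb6 and Serpinb9 copies) and another on chromosome 1. Of 25 genes 12 were tested, 4 were lower (33.3%, against 8.38% of all genes tested), 0 were higher (against 7.37%) and 8 were not called. On chromosome 13, 3 of 8 tested genes were lower (median log2 change -0.84), and on chromosome 1, 1 of 4 was lower. The lower gene on chromosome 1 was Serpinb7, whose call sets control signal against background readings in 3MC+TPA cells. With so few genes these counts are a description.

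The Serpinb1 copies, of which Serpinb1a is the mouse counterpart of the leukocyte elastase inhibitor, had wide control spread. Serpinb1a was at 1.31 and 1.15 in 3MC+TPA cells, against 2.74 and 4.46 in control cells, with a log2 change of -2.37 ± 0.56 (SE, limma adjusted p = 0.0497). Serpinb1b was at -2.84 and -2.52 in 3MC+TPA cells, against -1.26 and 0.19 in control cells, with -2.15 ± 0.49 (SE, limma adjusted p = 0.0443), and a second probe gave -1.54. Both calls lie near the threshold. Serpinb1a was called under 8 of 17 alternatives, with a limma adjusted p of 0.157 or 0.182 without 3MC+TPA array 1 or 2, and Serpinb1b had 0.168 or 0.144 without these arrays. Without control array 1 or 2 the log2 change was -3.23 or -1.51 for Serpinb1a and -2.87 or -1.42 for Serpinb1b.

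Serpinb1c, at -2.52 and -1.99 in 3MC+TPA cells, against -1.19 and 0.51 in control cells, was not called (log2 change -1.92 ± 0.58, SE, limma adjusted p = 0.0869). The control arrays of these Serpinb1 genes differed by 1.45 to 1.72, with control array 2 the higher each time. Over all 27 tested members the control arrays differed by more than 1 for 8, namely Serpina9, Serpinb1a, Serpinb1b, Serpinb1c, Serpinb2, Serpinb6b, Serpinc1 and Serpini1, and the 3MC+TPA arrays for 0.

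Among the Serpinb6 copies, Serpinb6b alone was called, at -0.93 and -1.35 in 3MC+TPA cells, against -0.04 and 0.96 in control cells. Its log2 change was -1.60 ± 0.37 (SE, limma adjusted p = 0.0474), and the call was lost without 3MC+TPA array 1 (0.119), 3MC+TPA array 2 (0.187) or control array 2 (0.0751). Serpinb6b was called under 6 of 17 alternatives. It also missed the threshold with the authors' deposited log2 values (limma adjusted p = 0.0509) and with quantile normalization (0.0513). Serpinb6a was at 4.53 and 4.58 in 3MC+TPA cells, against 4.51 and 4.71 in control cells (log2 change -0.05, limma adjusted p = 0.85). Serpinb6c was at 5.01 and 5.13 in 3MC+TPA cells, against 5.10 and 5.12 in control cells (-0.04), and Serpinb6e had a log2 change of -0.09. The difference between Serpinb6b and the other copies was not tested.

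The Serpinb6c and Serpinb6e probes overlap over 56 bases with 46 identical, so reading of each by the other's RNA was not tested. A stretch of both, with capitals where they differ, shows the letters that keep them apart.
Serpinb6c: gacagCtatgaaataaagggCttaATgGCA
Serpinb6e: gacagTtatgaaataaagggTttaTGgTAC

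Serpinb9, an inhibitor of granzyme B, was at -0.45 and -0.34 in 3MC+TPA cells, against -0.72 and -0.83 in control cells. The groups did not overlap, yet the log2 change of 0.38 ± 0.16 did not pass the test (SE, limma adjusted p = 0.162), and a second probe gave 0.10. The Serpinb9b, Serpinb9c, Serpinb9d, Serpinb9e and Serpinb9g copies were not tested.

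On chromosome 1, Serpinb7 (megsin) was above background in control cells only. Its values were -6.93 and -6.99 in 3MC+TPA cells, not well above background on either array, against -2.86 and -2.87 in control cells. Serpinb7 was therefore at least 3.83-fold lower, the bound being set by the dimmest signal well above background on each exposed array (limma adjusted p = 0.000332, a p that rests on background readings in 3MC+TPA cells). With normexp the fitted log2 change was -1.36, against -4.09 as reported. Serpinb8 was at -0.93 and -0.72 in 3MC+TPA cells, against 0.01 and 0.81 in control cells, and narrowly missed the threshold (log2 change -1.23 ± 0.30, SE, limma adjusted p = 0.0534). A second Serpinb8 probe gave a log2 change of -0.81. Serpinb3c was at a dim level on all 4 arrays (log2 change -0.11, limma adjusted p = 0.703), and a second Serpinb3c probe was not above background on any array.

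Of the remaining clades, Serpini1 (neuroserpin), an inhibitor of tissue plasminogen activator best known from neurons, was above background in 3MC+TPA cells only. It stood at -2.13 and -2.24 in 3MC+TPA cells, against -5.21 and -6.89 in control cells, not well above background on either control array. Serpini1 was at least 5.89-fold higher by the same kind of bound (limma adjusted p = 0.0132, and 0.0763 or 0.078 without 3MC+TPA array 1 or 2), where the p rests on background readings in control cells. Its fitted log2 change was 3.87, and 1.31 with normexp, 4.71 without control array 1 and 3.03 without control array 2. Serpinc1 (antithrombin), the plasma inhibitor of thrombin, was at -3.96 and -3.98 in 3MC+TPA cells, against -3.05 and -1.24 in control cells. Serpinc1 was not called (log2 change -1.83 ± 0.58, SE, limma adjusted p = 0.0984), and a second Serpinc1 probe was not above background on any array. Serpind1 and Serpini2 were not above background on any array.

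**Figure D4:**
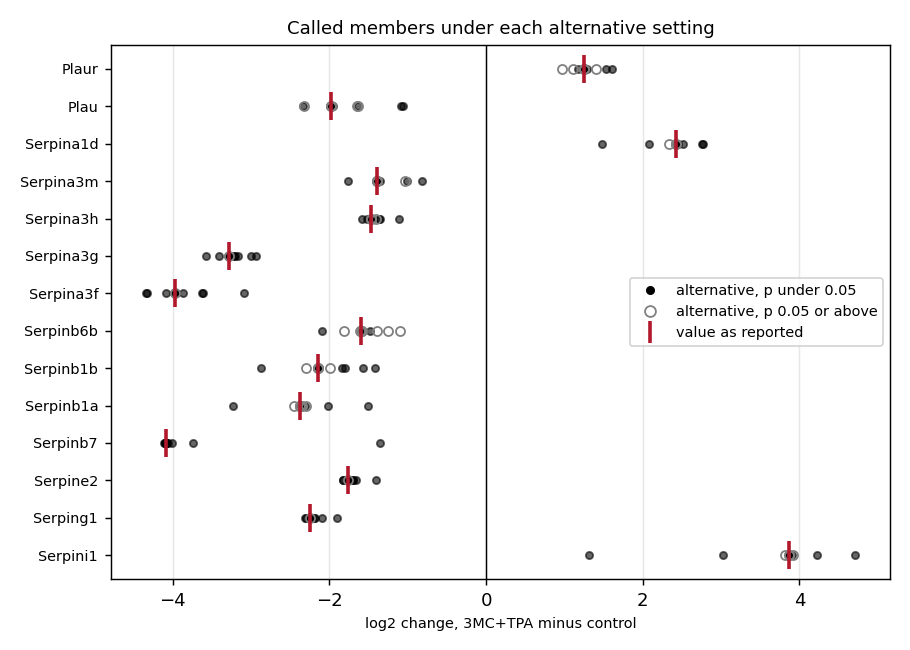
Log2 change (x axis, 3MC+TPA minus control) of each member called, under each alternative setting; the red bar is the value as reported, filled points have a p under 0.05 and open grey points do not. No called member changed sign, and Serpina3f, Serpina3g, Serpinb7, Serpine2 and Serping1 kept the most filled points.

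Genes that work beside the members were read from the same fit, in which 7.37% of all genes tested were higher and 8.38% lower. Among 19 genes of plasmin formation, its receptors and its clearance, 14 were tested: Itgb1, an integrin chain, was higher (log2 change 1.34 ± 0.22, SE, limma adjusted p = 0.0191) and Lrpap1, a chaperone of the receptor that clears inhibitor complexes, was lower (-0.79). Their median was 0.09, their shares of 1 in 14 each way were near those of all genes, and Plg, the plasminogen gene, was not above background on any array. Among 24 coagulation and complement genes 14 were tested, 0 were higher and 3 were lower, with a median of -0.78. F3 (tissue factor), which starts coagulation, was at 2.24 on both 3MC+TPA arrays, against 4.64 and 5.11 in control cells (log2 change -2.63 ± 0.21, SE, limma adjusted p = 0.00272). Pros1, the cofactor of protein C, fell by 1.45 and Masp1, a complement protease, by 1.72.

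Of 16 proteases that serpins inhibit, 15 were found and 7 tested. Of the 7, 2 were lower (against 8.38% of all genes tested) and 0 higher (against 7.37%). Casp1 was not well above background on either 3MC+TPA array, and was at least 2.19-fold lower (limma adjusted p = 0.0112). That p rests on background readings in 3MC+TPA cells. Hpn had a log2 change of -1.43 (limma adjusted p = 0.00945). It was well above background on only 1 of the 2 3MC+TPA arrays, so its p rests in part on a background reading. The other 5 were not called, and the median of the 7 was -0.62. Among 20 collagens and genes that fold and modify collagen beside Serpinh1, all 20 were tested, and P4ha3 (log2 change 1.58) and Plod2 (0.75) were higher and P4ha2 (-0.97) lower. The median of these 20 was 0.12, and the counts of this collagen list lie near the shares over all genes.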

How the data were processed

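RNA of 4 samples was read on 4 one-colour arrays of 1 slide, where position and group cannot be told apart, so no slide block could be fitted. Spot intensity came from the scanner software, Agilent Feature Extraction 10.7.3.1, per the file headers, and the processed signal is background-subtracted and detrended. The authors deposited a table of log2 values. Set against the scanner files, at least 61236 of 61307 probes of each column equal log2 of the processed signal minus the 75th percentile within 0.01. Its column medians are -4.39, -4.35, -4.29 and -4.31 for 3MC+TPA arrays 1 and 2 and control arrays 1 and 2, and it was used as an alternative. Per the submitters' processing notes, GeneSpring GX 11.5 was used.

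Control and outlier spots were left out, and spots of 1 probe were averaged. A gene was read by its brightest probe. The comparison used a 2-sided limma 3.58.1 fit (lmFit, then eBayes) in R 4.3.3 without a block, with Benjamini-Hochberg adjustment and a threshold of 0.05; the number of arrays limits the precision. The fit was tested on simulated data. Same-numbered arrays did not deviate together (correlation 0.0028), so numbers were not used as pairs. A bound is the mean of the bright group over the higher of the dimmest signal well above background and the probe's own. Of 78 member probes, 73 had an accession in the RefSeq table of GRCm38.p6, which gave chromosomes and promoters. Named genes are every member called, every uncalled member above background on all 4 arrays, members fixed by name, and up to 4 called genes of each other list; Serpina9 and members named as not tested were added after their values were seen. One gene that the name rule takes in is not reported here and stands in no member count or median. The members and lists were chosen with earlier results of these data known.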

Additional observations from a re-analysis of the deposited data

How the results depend on the processing

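Under the 17 alternatives run no called member changed sign, and the slide block could not be fitted. Without a filter on dim probes 346 features were called higher and 586 lower, with 0 members higher and 5 lower and a median member change of -0.24 over all 57. The methods' t-test after adjustment called 9 features higher and 12 lower, with 0 members higher and 1 lower (Serpinb7). Serpinb7 was not well above background on either 3MC+TPA array, so this call too rests on background readings. At an unadjusted p under 0.05 the t-test called 3 members higher and 6 lower, Serpini1 and Serpinb7 among them, of 2694 features higher and 3009 lower. Without scaling 5321 features and 5 members were called higher, against 3 members as reported, and the median member change was -0.88, against -1.23 as reported. It was -0.82 with normexp and -0.50 over probes. Leaving out 1 array gave 410 to 1513 features higher and 782 to 1826 lower, 0 to 3 members higher and 5 to 14 lower, and a median member change of -1.58 to -0.83. The cause was not tested. Signs turned for members never called. Without scaling these were Serpinb2 (0.11), Serpinb3c (0.24), Serpinb6a (0.30), Serpinb6c (0.31), Serpinb6e (0.26) and Serpinh1 (0.27). With quantile normalization they were Serpinb6a (0.044), Serpinb6c (0.075) and Serpinh1 (0.0098), with normexp Serpinb6c (0.033), and with the mean over probes Serpinh1 (0.014). Leaving out 1 array gave ranges that cross 0: Plat -0.021 to 0.30, Serpinb2 -0.91 to 0.44, Serpinb3c -0.24 to 0.025, Serpinb6a -0.15 to 0.044, Serpinb6c -0.10 to 0.022, Serpinb6e -0.23 to 0.056 and Serpinh1 -0.28 to 0.12. With the replicate block 3472 features were called, against 3935, with 3 members higher and 12 lower, Serpinb6b was lost (limma adjusted p = 0.0615), and Serpinb1c (0.0288) and Serpinb8 (0.0336) were gained. The array numbers share no more than a number (correlation of deviations 0.0028).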
